A study of Mus musculus with 57 samples.

Results

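The 9 genes described here, Cx3cr1, Gpr34, Adgrg1, Siglech, Fcrls, Slc2a5, Tmem119, Olfml3 and Sparc, encode proteins that are widely used to recognise resting microglia, the resident macrophages of the brain. They were chosen by symbol from a list of surface and secreted microglia markers. All 9 were found among the 53278 genes of the LPS experiment, and 8 of 9 among the 50565 genes of the sex experiment, where Fcrls has no row under that symbol. The study sequenced polyadenylated RNA of CD11b-positive brain cells from adult mice, from wild-type (WT) mice and from littermates lacking P2RY12 (KO), a nucleotide receptor of resting microglia, and the labels do not say how its gene was disrupted. In the sex experiment, which is not labelled by treatment, 9 males (4 of them WT) and 9 females (also 4 WT) were measured. In the LPS experiment there were 9 libraries labelled WT LPS and 8 each labelled WT ns, KO ns and KO LPS. LPS is bacterial lipopolysaccharide, an inflammatory stimulus, injected intraperitoneally at 1 mg/kg. The meaning of ns is not stated in the labels, nor is the sex of these mice.

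Homeostatic microglia hold a gene program that depends on signalling by transforming growth factor beta, and much of that program is known to be turned down when the cells meet an inflammatory stimulus. Surface genes of the program sense the surroundings. CX3CR1 binds fractalkine made by neurons, GPR34 senses lysophosphatidylserine, ADGRG1 (also called GPR56) is an adhesion receptor, and SIGLECH is a receptor of the Siglec family. FCRLS is an Fc receptor-like scavenger receptor, SLC2A5 (GLUT5) carries fructose, and TMEM119 is a membrane protein used to tell microglia from other macrophages. OLFML3 and SPARC are secreted glycoproteins of the extracellular matrix.

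In the GRCm39 coordinates given with the sex experiment, Tmem119 spans chr5:113931790-113938530 on the minus strand, Cx3cr1 chr9:119877749-119897362 (minus) and Siglech chr7:55417916-55429196 (plus). Gpr34 spans chrX:13489777-13507098 (plus), Olfml3 chr3:103642710-103645317 (minus) and Sparc chr11:55284985-55310906 (minus). Slc2a5 spans chr4:150203801-150228625 (plus) and Adgrg1 chr8:95701321-95740836 (plus). Each span was counted whole, introns included, and 3 of the members overlap another gene on the opposite strand. Gpr34 lies inside Cask, whose count was 116% to 126% of the Gpr34 count in each animal. Gm51544, antisense to the end of Adgrg1, held 42% to 44.4% of the Adgrg1 count, Gm30968 at its start held at most 0.0463%, and Gm33858 held 2.49% to 3.41% of the Cx3cr1 count. A strand setting is not given in the sources used here, so reads of these pairs cannot be told apart. The other 5 overlap no gene of that table.

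Promoter sequences were available from RefSeq (GRCm38.p6, a different build from the coordinates above) for 7 of the 9 members, Adgrg1 with a pair of start sites, which gave 8 windows of 250 bases upstream of a start. Tmem119 and Gpr34 had no entry. The windows of the 3 matched members with the largest falls under LPS in KO (in WT, Adgrg1 fell more than Fcrls), and of Cx3cr1, whose level was not called different, are shown for comparison. Each is written 5′ to 3′ on the strand of its gene, and capitals mark CAGACA, a SMAD-type element searched on both strands, so that TGTCTG marks the reverse complement.
Slc2a5 (chr4:150119094-150119343, plus): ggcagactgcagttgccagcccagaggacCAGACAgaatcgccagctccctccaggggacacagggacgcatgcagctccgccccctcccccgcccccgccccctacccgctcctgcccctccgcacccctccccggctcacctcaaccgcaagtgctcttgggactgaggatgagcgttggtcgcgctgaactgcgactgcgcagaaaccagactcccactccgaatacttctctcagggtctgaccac
Siglech (chr7:55767934-55768183, plus): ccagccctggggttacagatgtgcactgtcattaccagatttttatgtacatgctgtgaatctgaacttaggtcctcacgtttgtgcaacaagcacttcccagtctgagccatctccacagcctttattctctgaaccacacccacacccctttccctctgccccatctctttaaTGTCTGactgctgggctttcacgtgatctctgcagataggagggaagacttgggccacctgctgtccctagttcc
Fcrls (chr3:87263525-87263774, minus): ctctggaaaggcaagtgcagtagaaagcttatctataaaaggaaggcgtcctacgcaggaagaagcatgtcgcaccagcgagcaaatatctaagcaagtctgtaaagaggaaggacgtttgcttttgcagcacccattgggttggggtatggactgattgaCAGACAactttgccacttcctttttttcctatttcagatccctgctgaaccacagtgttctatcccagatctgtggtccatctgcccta
Cx3cr1 (chr9:120068297-120068546, minus): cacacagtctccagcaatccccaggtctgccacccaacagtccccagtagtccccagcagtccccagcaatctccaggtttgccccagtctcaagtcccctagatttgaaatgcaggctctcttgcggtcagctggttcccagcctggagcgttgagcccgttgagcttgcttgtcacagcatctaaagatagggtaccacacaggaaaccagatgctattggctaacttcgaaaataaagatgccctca
CAGACA was present in 5 of the 8 windows, those of Slc2a5, Siglech, Fcrls, Sparc and the first Adgrg1 start, and in 17.1% of the same upstream windows of all 32851 promoters. The Cx3cr1 window was the only one with the MEF2 motif (3.2% of all promoters), and the Fcrls window the only one with TATAAA (12.4%). TGANTCA, the AP-1 element, was found at the second Adgrg1 start alone (6.75%). Of the ETS-type elements, GGAAGT was found in the Fcrls and Siglech windows (19.7%) and GAGGAA in that of Fcrls (23.3%). The NF-kappaB-type GGGNNTTCC (4.98%) and the IRF motif (2.98%) matched none of the windows, and a longer, looser NF-kappaB motif matched 5 (45.8%). All were searched on both strands. These matches describe letters in the windows shown and no binding was measured.

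Total counts ran from 58.5 to 319 M per animal in the sex experiment (M standing for mega) and from 15.9 to 168 M per sample in the LPS experiment. WT LPS 8 and WT LPS 9 differed far less from each other than any other pair (chi-square per degree of freedom 1.86, against at least 8.32) and were counted as 1 sample, which leaves 32 samples. The labels do not say that each library of the LPS experiment came from a separate animal, so p-values there measure the spread between these samples. Levels are in CPM, the count per M of a TMM-scaled library total. Genes with an adjusted p under 0.05 are "called" (edgeR's quasi-likelihood F test, Benjamini-Hochberg adjustment over all genes tested), and log2 fold changes carry ± SE. P2ry12 separated the genotypes, at 3007 to 5928 CPM in the 8 WT and 309.3 to 526.4 CPM in the 10 KO animals of the sex experiment, although counts remained in KO. By their names the libraries of the LPS experiment form 2 sets that each contain every group. Set 1 had 0.698 to 2.11 CPM of Xist and set 2 had 727 to 2529. Ddx3y, a gene of the Y chromosome, was at 97.7 to 140 CPM in set 1 and 0 to 0.563 in set 2. By these markers set 1 is male and set 2 is female, so set and sex cannot be told apart.

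4 of the WT libraries, those numbered 2 in their names, went against their treatment labels. Saa3, an acute-phase gene induced by LPS, was at 1781 and 2491 CPM in the library labelled WT ns 1 and in that labelled WT ns 5, against 1.52 to 64.4 in the other 6 labelled WT ns. It was at 1.59 and 3.21 CPM in the library labelled WT LPS 1 and in that labelled WT LPS 6, against 1418 to 9720 in the other 6. P2ry12 showed the same placement, with 481 and 927 CPM in the former pair and 4461 and 12150 CPM in the latter. These 4 libraries are therefore shown apart and enter no comparison, and values with all libraries as labelled are given beside the WT results. Another 6 libraries, all of set 2, correlated below 0.98 with every other library, namely those labelled WT ns 5 and WT LPS 6, and WT LPS 7, KO ns 5, KO ns 6 and KO LPS 5. Mitochondrial transcripts made up 2.69% to 8.55% of their counts, against 0.787% to 1.81% in the other 26. Within set 2 the trait ran in part with library number. WT ns 5, WT LPS 6, KO ns 5 and KO LPS 5 are numbered 2 in their names, and WT LPS 7 and KO ns 6 are numbered 3. WT ns 6 and KO LPS 6, also numbered 3 in set 2, were not among them, nor was any library of set 1. LPS and genotype results are also given without these 6 libraries.

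In the KO libraries, where no label was in doubt, 8 of the 9 members fell with LPS and Cx3cr1 was not called. The falls ranged from 11.9-fold for Gpr34 to 1.44-fold for Sparc. Over all 15857 genes tested, 28.3% were called in this comparison, and 15.2% were called lower. The members' median log2 fold change was -1.35, beside -0.02 over all genes. In bulk samples, fewer cells of a type and less RNA of a gene per cell cannot be told apart. Leaving out the 6 libraries unlike the others also gave 8 members called, all lower. In that setting 8765 of 15931 genes were called, 4327 of them lower.

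Among the receptors, Gpr34 changed most. Its level was 1441 to 11660 CPM in KO ns (median 1680, n = 8) and 84.3 to 743 CPM in KO LPS (median 166, n = 8). The groups did not overlap, and the highest value of each group came from a library unlike the others, KO ns 6 and KO LPS 5. Its log2 fold change was -3.57 ± 0.51 (adjusted p 3.06e-06), and -3.32 without the 6 libraries. Cask, which surrounds Gpr34 on the opposite strand, fell by 1.33 ± 0.14 on the log2 scale.

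Siglech, the Siglec-family receptor that signals through the adaptor TYROBP, fell as well. Its level was 1333 to 2208 CPM in KO ns (median 1617) and 290.1 to 584.7 CPM in KO LPS (median 312). 7 of the 8 KO LPS libraries lay between 290.1 and 343.6, and KO LPS 5 was above them. The log2 fold change was -2.32 ± 0.18 (adjusted p 6.07e-11), a 5.00-fold fall.

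Fcrls and Adgrg1 also fell, with groups that overlapped. Fcrls was at 2027 to 6095 CPM in KO ns (median 2512) and 533.6 to 2385 in KO LPS (median 667), and its log2 fold change was -1.69 ± 0.28 (adjusted p 3.2e-05), or -1.71 without the 6 libraries. The 2 groups met through KO LPS 5, since the other 7 KO LPS libraries were at 1029 or lower. Adgrg1 was at 223.8 to 1105 CPM in KO ns (median 927) and 36.2 to 554.5 in KO LPS (median 350), and its log2 fold change was -1.35 ± 0.43 (adjusted p 0.0182). Its overlap came from the opposite side, through KO ns 5 and KO ns 6 at 297.8 and 223.8 CPM, while the other 6 KO ns libraries were at 892 or higher. With all libraries as labelled the log2 fold change of Adgrg1 was the same, -1.35, but it was not called (adjusted p 0.0524). Without the 6 libraries it was -1.42 (adjusted p 0.000343).

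Cx3cr1, the fractalkine receptor, was the only receptor of the 5 that was not called. Its level was 566.2 to 3568 CPM in KO ns (median 3248) and 1626 to 3096 in KO LPS (median 2552). The ranges overlapped widely, and KO ns 6 alone was below 2955 in its group. Its log2 fold change was -0.21 ± 0.40 (adjusted p 0.75), with an interval from -0.99 to 0.56, which includes changes as large as those of Sparc and Tmem119. Without the 6 libraries it was -0.31 (adjusted p 0.507).

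Slc2a5, the fructose transporter, had the second largest fall of the members in KO. It was at 484.4 to 653.4 CPM in KO ns (median 583) and 20.1 to 94.0 in KO LPS (median 62.8). All KO LPS libraries were far below all KO ns libraries, and the libraries unlike the others sat inside the range of their group. The log2 fold change was -3.19 ± 0.33 (adjusted p 1.54e-08), a 9.14-fold fall. Of the 9 members, Slc2a5 also followed the rest most closely over the 16 KO libraries, with a Pearson r of 0.96 between its log2 CPM and the mean of the other members, as against 0.17 for Cx3cr1. These libraries share the LPS contrast, so the r values describe it and carry no test.

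Tmem119, Olfml3 and Sparc changed least among the called members. Olfml3, a secreted glycoprotein, was at 1511 to 2077 CPM in KO ns (median 1896) and 300.5 to 1585 in KO LPS (median 865), and its log2 fold change was -0.98 ± 0.26 (adjusted p 0.00452). Only KO LPS 3, at 1585, reached into the ns range. Tmem119 was at 1002 to 2886 CPM in KO ns (median 2643) and 660.7 to 2043 in KO LPS (median 1858). The log2 fold change of Tmem119 was -0.61 ± 0.22 (adjusted p 0.0425). Sparc was at 1601 to 3462 CPM in KO ns (median 3062) and 1033 to 2843 in KO LPS (median 2149), and its log2 fold change was -0.53 ± 0.19 (adjusted p 0.0394). Both were near the threshold and were no longer called with all libraries as labelled (adjusted p 0.106 for Tmem119 and 0.0621 for Sparc). Without the 6 libraries their adjusted p was 0.00226 and 0.00126.

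**Figure D1:**
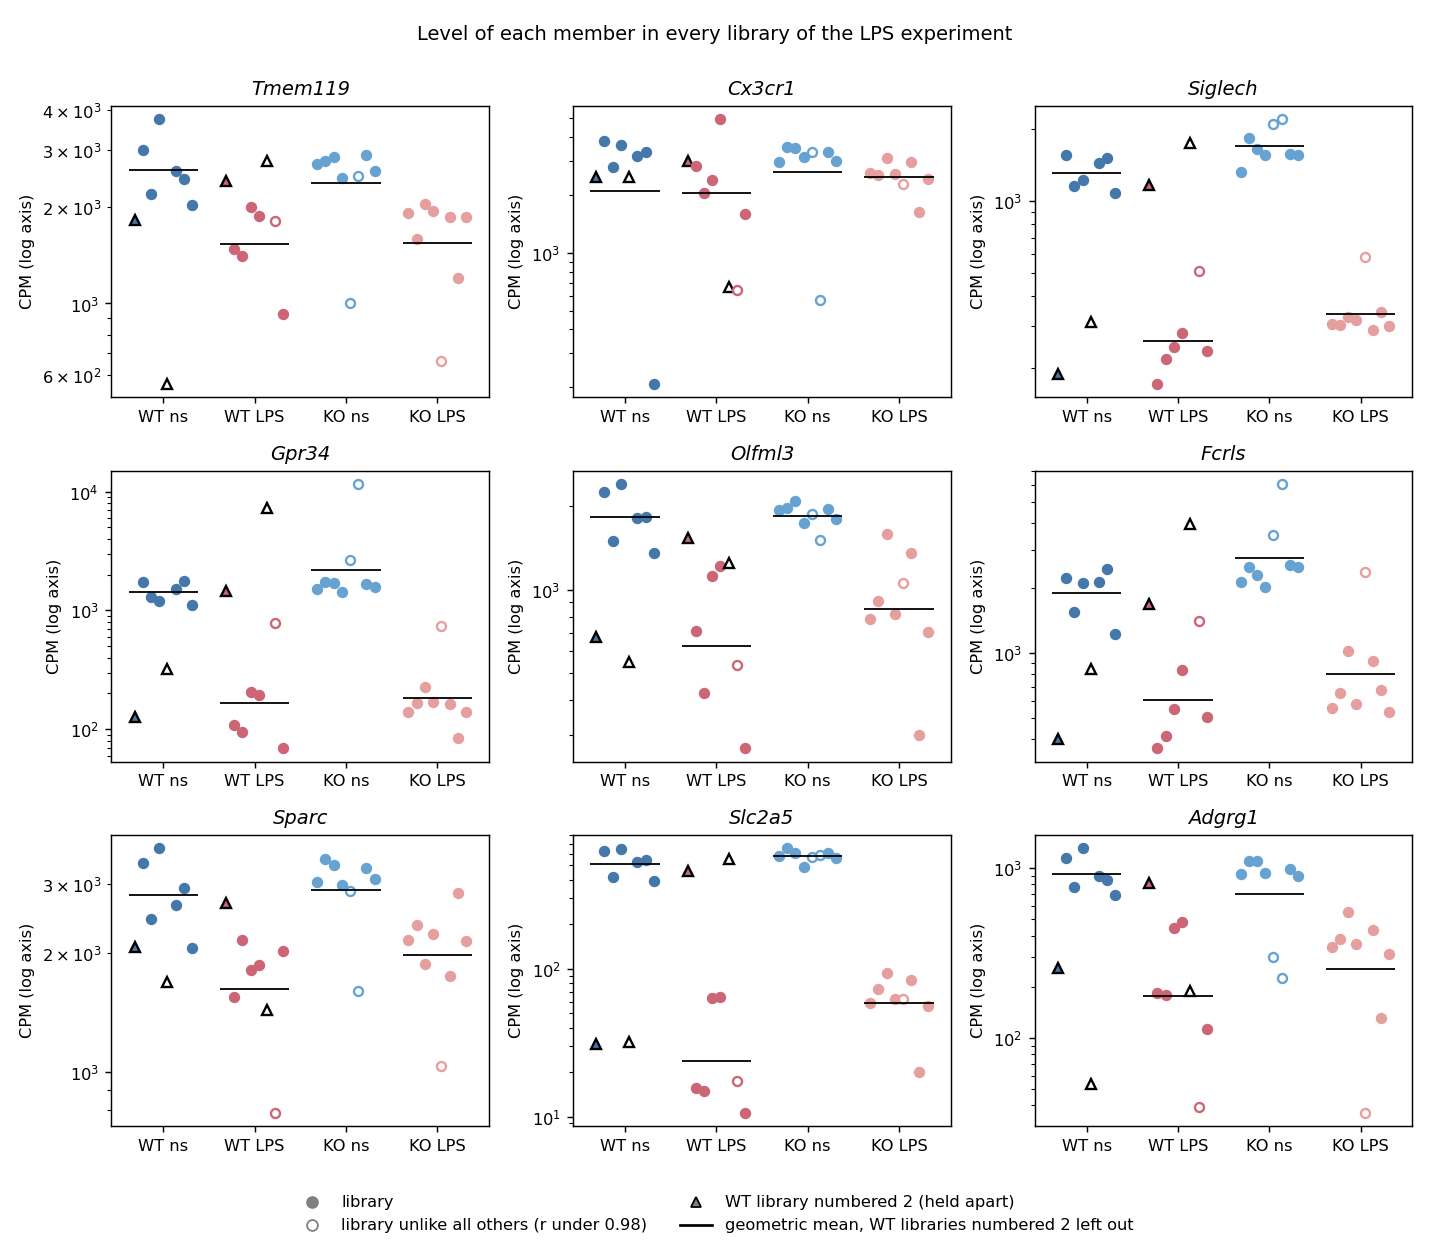
Level of each member in every sample of the LPS experiment, in CPM on a log axis, for the groups WT ns, WT LPS, KO ns and KO LPS. Points are samples, triangles the 4 WT libraries numbered 2, open symbols the 6 libraries unlike all others, and lines the geometric means without the triangles. Slc2a5, Siglech and Gpr34 separate KO ns from KO LPS without overlap, and Cx3cr1 does not.

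The library sets gave different precision. Over both sets, 3 members lay wholly lower in the KO LPS than in the KO ns libraries (Siglech, Gpr34 and Slc2a5), beside 4.04% of all genes. In set 1 by itself (4 libraries a group), 8 of 9 members were called, all but Cx3cr1, beside 7058 of 15719 genes. In set 2 by itself the same 3 genes that did not overlap were called, beside 756 of 16250 genes, with log2 fold changes of -2.20, -3.78 and -3.29. The other 6 members had log2 fold changes in set 2 from -1.58 for Fcrls to -0.09 for Cx3cr1, beside -1.64 and -0.26 in set 1. All 4 of the libraries unlike the others that remained in a comparison are of set 2.

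The WT libraries showed the same members lower with LPS once those numbered 2 were held apart (n = 6 in each group). 8 of 9 members fell and Cx3cr1 was not called, against 30.3% of all genes called and 15.5% called lower. The members' median log2 fold change was -1.65, beside -0.01 over all genes. With all libraries as labelled, none of the 9 members was called, and none of the 15857 genes (edgeR's quasi-likelihood test), so each WT statement on LPS here depends on holding those 4 libraries apart.

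Slc2a5 had the largest fall of the members in WT. It was at 390.2 to 643.8 CPM in WT ns (median 534) and 10.6 to 65.0 in WT LPS (median 16.5). No WT LPS library reached the ns range. The log2 fold change was -4.06 ± 0.40 (adjusted p 7.83e-09), a 16.7-fold fall, and -1.41 with all libraries as labelled (adjusted p 0.214). Gpr34 was at 1115 to 1782 CPM in WT ns and 69.1 to 790 in WT LPS, again without overlap, and its log2 fold change was -2.79 ± 0.57 (adjusted p 0.0004), as against -0.19 as labelled. WT LPS 7, unlike the other libraries, held the value of 790, and the next highest was 207.

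Siglech was at 1080 to 1559 CPM in WT ns and 172.1 to 510.2 in WT LPS, and its log2 fold change was -2.31 ± 0.21 (adjusted p 1.87e-09), and -0.92 as labelled. Adgrg1 was at 694.6 to 1307 CPM in WT ns and 39.0 to 478.5 in WT LPS, and Olfml3 at 1353 to 2396 and 269.5 to 1219. Neither overlapped between the groups. Their log2 fold changes were -1.98 ± 0.51 and -1.37 ± 0.30 (adjusted p 0.00375 and 0.000931), and -1.36 and -0.80 as labelled. Fcrls overlapped through WT LPS 7, at 1415 CPM, and WT ns 8, at 1228 CPM. Its log2 fold change was -1.65 ± 0.33 (adjusted p 0.000306), and -0.53 as labelled.

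Tmem119 and Sparc changed by 1.67-fold and 1.68-fold in WT. Tmem119 was at 2023 to 3741 CPM in WT ns and 924.4 to 1991 in WT LPS, and Sparc at 2058 to 3696 and 786.8 to 2156. The lowest WT ns value of Tmem119 lay just above the highest WT LPS value, and Sparc overlapped by 1 library on each side. Log2 fold changes were -0.74 ± 0.26 for Tmem119 (adjusted p 0.0309) and -0.75 ± 0.22 for Sparc (adjusted p 0.0115), and -0.30 and -0.55 as labelled. Cx3cr1 ranged from 208.8 to 3808 CPM in WT ns and from 643.1 to 4951 in WT LPS. Its log2 fold change was -0.19 ± 0.46 (adjusted p 0.792). Set 1 by itself, in which neither extreme library occurs, gave -0.47 (adjusted p 0.0187), so that all 9 members were called there (beside 6689 of 15719 genes), and set 2 by itself gave 0.15 (adjusted p 0.958).

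6 of the 9 members lay wholly lower in WT LPS than in WT ns, beside 14.2% of all genes. Set 2 by itself left Siglech and Slc2a5 called, beside 589 of 16250 genes. Without the libraries unlike the others, 8 members were called, beside 8692 of 15931 genes, 4252 of them lower. The log2 fold changes of these members ran from -3.92 for Slc2a5 to -0.57 for Sparc, and Cx3cr1 was at 0.01.

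Held against these ranges, the members placed the WT libraries numbered 2 with the opposite label in 3 of 4 cases. The library labelled WT ns 1 fell within the range of the other WT LPS libraries for 9 of 9 members, for example with Slc2a5 at 31.3 CPM and Gpr34 at 127. The library labelled WT LPS 1 fell within the WT ns range for 9 of 9, with Slc2a5 at 460.9 CPM and Gpr34 at 1469. The library labelled WT ns 5 fell within the WT LPS range for 8 of 9, the exception being Tmem119, lower than either range at 562.7 CPM. These counts include Cx3cr1, whose wide WT ns and WT LPS ranges both held all 4 libraries, so Cx3cr1 places none of them. Sparc of the library labelled WT ns 1 also lay in both ranges. The library labelled WT LPS 6 fell within the WT ns range for 3 and the WT LPS range for 3, and it was nearer to WT ns for 6 of 9 members. Its Gpr34 (7301 CPM) and Fcrls (3975 CPM) were higher than any other WT library, while its Cx3cr1 was at 665.8 and its Adgrg1 at 189.3 CPM. WT ns 5 and WT LPS 6 are also among the 6 libraries unlike all others, and whether these libraries were exchanged was not tested.

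**Figure D2:**
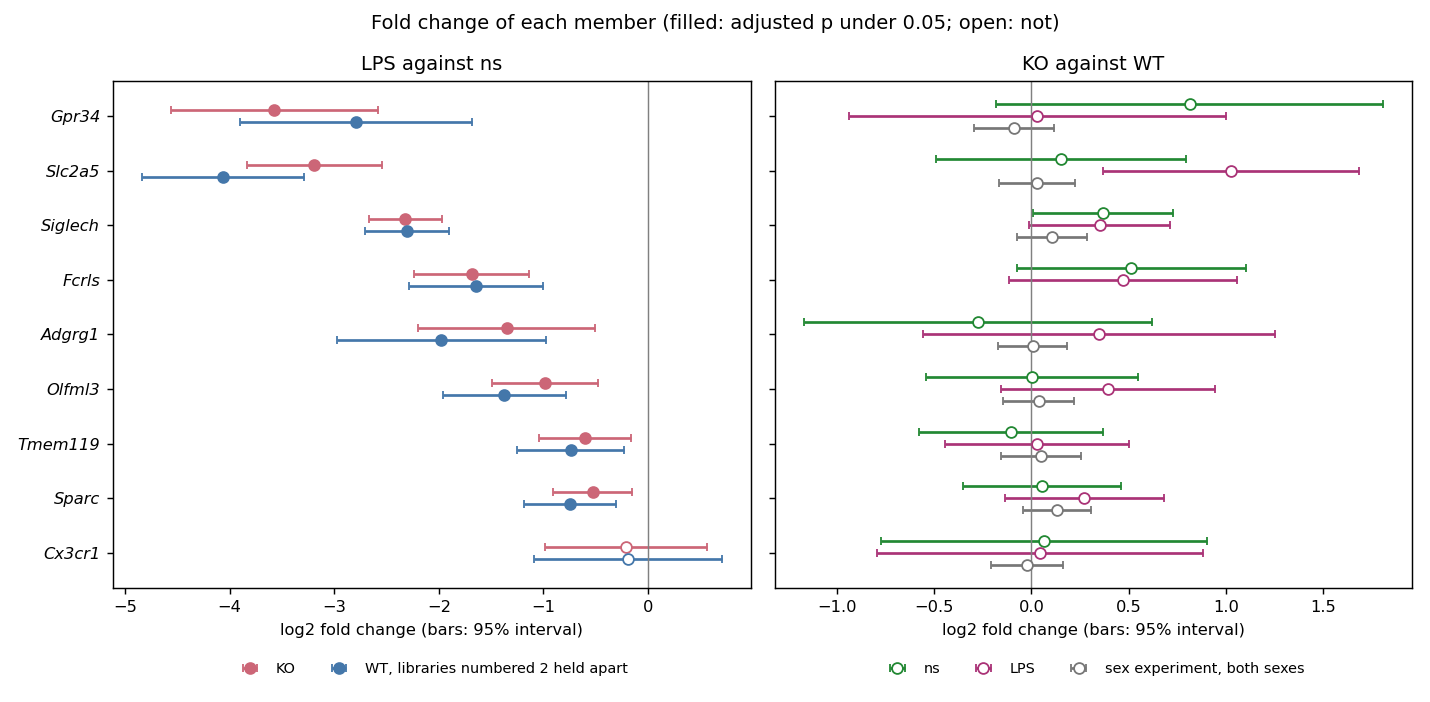
Log2 fold change of each member with bars of its 95% interval, for LPS against ns in KO and WT (left) and for KO against WT at ns, at LPS and in the sex experiment (right). The intervals are approximate (SE and a normal quantile). That of Siglech for KO against WT at ns starts just above 0, at 0.006, although its unadjusted p was 0.0558 (edgeR's quasi-likelihood F test). Filled points are called and open points are not. In the LPS panel 8 members are filled in each genotype, from -4.06 to -0.53, and in the genotype panel every point is open.

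The response to LPS was not shown to differ between the genotypes for any member. In the genotype-by-LPS interaction, which tests the difference between the 2 responses directly, 0 of 9 members were called, beside 0% of all genes, and 0 of 9 had an unadjusted p under 0.05. DESeq2 called 0 members and 3 genes. The widest estimates were 0.87 ± 0.46 for Slc2a5 and -0.78 ± 0.71 for Gpr34 (adjusted p 0.754 and 0.812). The interval of Gpr34 ran from -2.17 to 0.60, so a sizeable difference in either direction could not be detected at this depth and spread. Siglech was estimated most closely, at -0.02 ± 0.26. Without the 6 libraries the Gpr34 value was 0.08 ± 0.33 and that of Slc2a5 0.77 ± 0.55, and none of the 9 was called.

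Between KO and WT at ns, 0 of 9 members were called, beside 0.0883% of all genes, and 0 had an unadjusted p under 0.05. DESeq2 also called 0 of the 9. Log2 fold changes ran from -0.27 ± 0.46 for Adgrg1 to 0.81 ± 0.51 for Gpr34 (adjusted p 0.771 and 0.605). The Gpr34 value rests on KO ns 5 and KO ns 6, at 2677 and 11660 CPM, since without the 6 libraries it was 0.12 (adjusted p 0.872). Siglech was at 0.37 ± 0.18 (adjusted p 0.565) and Fcrls at 0.51 ± 0.30 (adjusted p 0.588). Olfml3, Sparc, Cx3cr1, Slc2a5 and Tmem119 lay between -0.10 and 0.15. With all libraries as labelled, all 9 log2 fold changes were positive, from 0.08 to 1.15, and none was called.

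Under LPS, 0 of 9 members were called between KO and WT, beside 0.0946% of all genes. All 9 estimates were above 0 (7 in set 2 by itself), with a median of 0.35 beside -0.04 over all genes, and only that of Slc2a5 had an unadjusted p under 0.05. Slc2a5 was at 20.1 to 94.0 CPM in KO LPS and 10.6 to 65.0 in WT LPS, so that the groups overlapped. Its log2 fold change was 1.03 ± 0.34 (unadjusted p 0.00497 and adjusted p 0.487, both from edgeR's quasi-likelihood test). DESeq2 called 0 of the 9. Without the 6 libraries none was called either, with Slc2a5 at 0.90 (adjusted p 0.398), Siglech at 0.44 (adjusted p 0.0838) and Cx3cr1 below 0, at -0.14. A replicate block by library number, an alternative given at the end, did call Slc2a5 and no other member. With all libraries as labelled, the direction for Slc2a5 was the opposite (-1.24, adjusted p 0.737), as it was for Gpr34 (-2.23), Siglech (-0.71), Fcrls (-0.36) and Tmem119 (-0.19), so for these 5 members the direction between genotypes under LPS depends on the libraries numbered 2. Adgrg1, Cx3cr1, Olfml3 and Sparc stayed above 0 as labelled.

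The sex experiment gave the smallest SE of the genotype difference. Its titles name no treatment, although the LPS treatment text stands in the labels of every sample of the series. Averaged over the sexes, 0 of 8 members were called between KO and WT, beside 0.432% of all genes, and none had an unadjusted p under 0.05. Log2 fold changes ran from -0.09 ± 0.10 for Gpr34 to 0.13 ± 0.09 for Sparc (adjusted p 0.928 and 0.744). The 95% intervals of the 8 members all lay between -0.30 and 0.31. These levels therefore differed between the genotypes by less than the spread between animals allowed to be detected.

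Tmem119 was at 1043, 1853, 1899 and 1912 CPM in male WT and at 1423, 1687, 1787, 1794 and 1831 in male KO. In females it was at 1276, 1510, 1754 and 1786 CPM in WT and at 1444, 1628, 1633, 1728 and 1909 in KO. The genotypes overlapped in both sexes, and male WT 5 was the lowest of all animals. Cx3cr1 was at 3942, 6586, 6635 and 6641 CPM in male WT and at 5340, 5757, 5784, 6025 and 6124 in male KO, with male WT 5 again apart. In females Cx3cr1 was at 4263, 5348, 5979 and 6022 CPM in WT and at 5097, 5113, 5280, 5511 and 5811 in KO. The genotypes overlapped in both sexes for Cx3cr1 too.

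Gpr34 was at 1619 ± 364 CPM in male WT, 1597 ± 160 in male KO, 1534 ± 338 in female WT and 1371 ± 75.0 in female KO (SD, n = 4 for WT and 5 for KO). Siglech was at 1947 ± 385, 2099 ± 179, 1745 ± 329 and 1874 ± 57.7 CPM in the same order. Slc2a5 was at 462 ± 117, 465 ± 49.4, 436 ± 56.7 and 450 ± 36.6 CPM, and Adgrg1 at 611 ± 131, 613 ± 31.9, 586 ± 96.7 and 588 ± 40.7 CPM. The secreted Olfml3 was at 1367 ± 327, 1363 ± 127, 1288 ± 155 and 1359 ± 61.1 CPM, and Sparc at 2351 ± 483, 2557 ± 190, 2235 ± 333 and 2467 ± 114 CPM. In each of these 6 genes the WT groups were spread more widely than the KO groups, as they were for Tmem119 and Cx3cr1.

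In each WT group 1 animal was low throughout. Male WT 5 was the lowest of its group for 8 of 8 members, and so was female WT 2. The same animals had the highest summed level of 9 neutrophil markers, at 47310 and 27940 CPM, against 717 to 7825 CPM in the other 16. Their monocyte markers summed to 4593 and 2656 CPM, against 176 to 859. Without this pair, 0 of 8 members were called, and 7 of 8 had an averaged log2 fold change below 0 in place of 2 of 8. Gpr34 was then at -0.23 ± 0.06 (adjusted p 0.086) and Cx3cr1 at -0.15 ± 0.06 (adjusted p 0.451), both further below 0 than with all animals. The values of Adgrg1, Olfml3, Siglech, Slc2a5 and Tmem119 turned from above to below 0, so the sign of these small differences depends on those animals. The part of neutrophil RNA in these values was not tested.

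**Figure D3:**
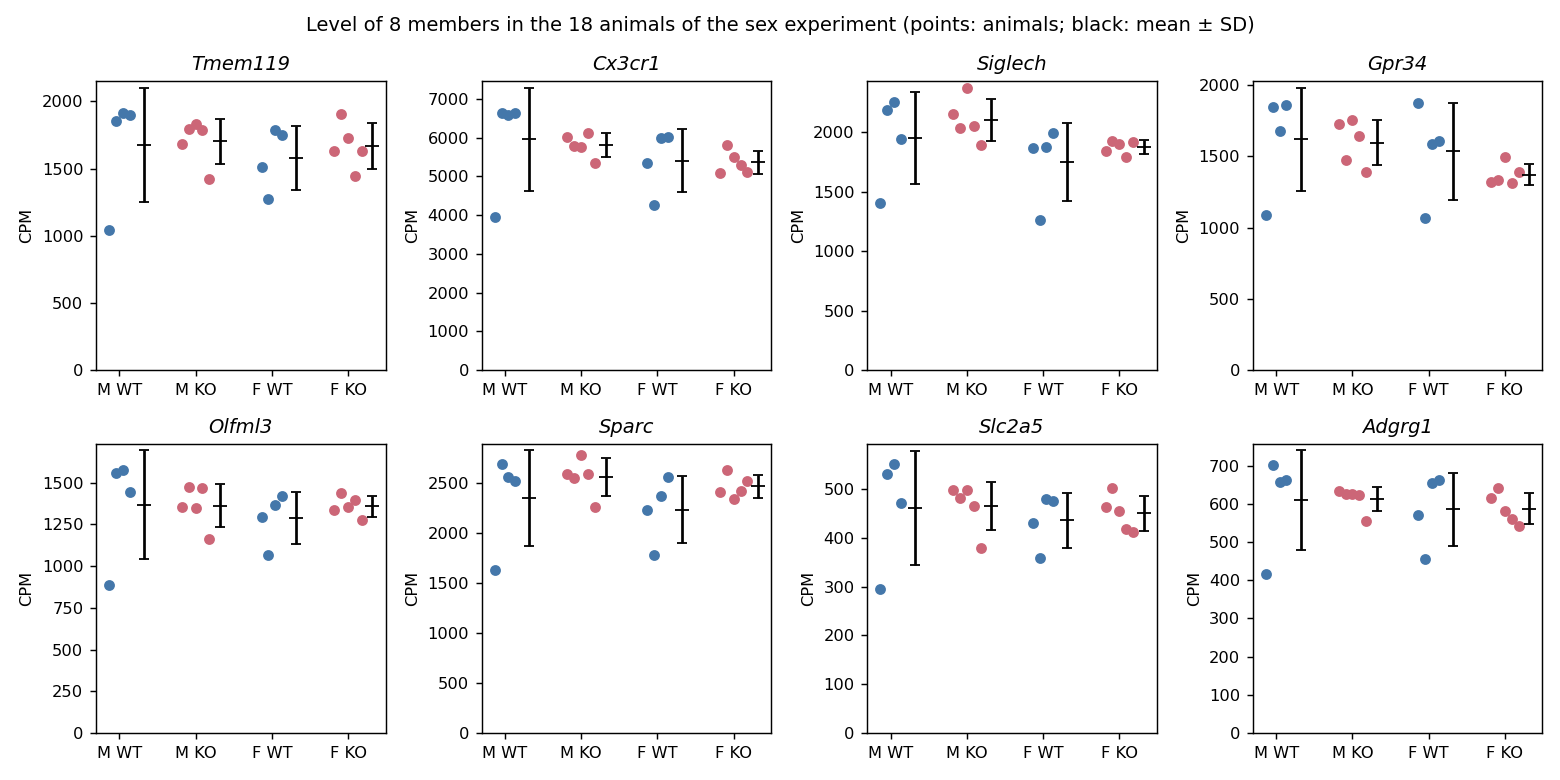
Level of 8 members in the 18 animals of the sex experiment, in CPM, for male (M) and female (F) WT and KO. Points are animals, and the black bar is the group mean ± SD. The lowest point of each WT group is male WT 5 or female WT 2 in all 8 panels.

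Split by sex, the members were not called either. In males 0 of 8 were called, beside 0.00946% of all genes, with log2 fold changes from -0.04 to 0.12. In females 0 of 8 were called, beside 0.164%, with values from -0.16 for Gpr34 to 0.14 for Sparc. The sex-by-genotype interaction called 0 of 8 members and 0% of all genes, and the largest estimates were -0.14 ± 0.21 for Gpr34 and 0.08 ± 0.19 for Olfml3. None of these 24 tests had an unadjusted p under 0.05, and DESeq2 called no member in any of them. Between the sexes in WT, 0 of 8 members were called, beside 0.0725% of all genes. All 8 were slightly lower in females, from -0.16 ± 0.14 for Siglech to -0.06 ± 0.13 for Adgrg1, which is within the spread between animals.

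Fcrls has no row in the sex experiment under its own symbol. A gene listed as Fcrl2 (chr3:87158318-87171046, minus, GRCm39) sits there between Gm10705 and Gm31879, the neighbours of Fcrls in RefSeq GRCm38.p6. Whether it is the same gene was not settled, and it is not counted among the members. Its level (SD over 4 WT or 5 KO animals) was 1713 ± 374 CPM in male WT, 1889 ± 106 in male KO, 1818 ± 329 in female WT and 1871 ± 73.1 in female KO. The log2 fold change averaged over the sexes was 0.09 ± 0.09 (adjusted p 0.896).

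Other homeostatic microglia genes, a list of 35 that shares no gene with the 9 members, also fell with LPS for the most part. In KO, 24 of 35 were called lower, 1 higher and 10 were not called, with a median log2 fold change of -0.94. Over all genes tested in KO, 28.3% were called, 15.2% were called lower, and the median was -0.02. In WT with the numbered libraries apart the counts were 24, 1 and 10, with a median of -1.03. Over all genes tested in WT, 30.3% were called, 15.5% were called lower, and the median was -0.01. The members' medians were -1.35 and -1.65. The lowest in KO were Upk1b, a uroplakin (-4.65 ± 0.21), P2ry12 (-2.80 ± 0.22) and Hpgd, which breaks down prostaglandins (-2.43 ± 0.34). In WT they were Upk1b (-5.05 ± 0.25), P2ry12 (-2.97 ± 0.25) and Crybb1, a crystallin (-2.56 ± 0.45). P2ry6, a receptor for UDP that promotes phagocytosis, was the gene called higher, by 0.47 ± 0.13 in KO and 0.48 ± 0.15 in WT. Among genes of the same list, KO and WT were called different in the sex experiment for P2ry12 and its neighbour P2ry13 (-1.96 ± 0.13). At ns they were called different for P2ry12 alone (-2.62 ± 0.22), and under LPS for P2ry12 and Liph, a lipase (1.02 ± 0.18, adjusted p 0.00652). P2ry13 was not called between KO and WT at ns or under LPS.

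Ligands, adaptors and relatives of the members were called about as often as genes in general. Of 15 tested in the LPS experiment, 2 were called lower and 2 higher in each genotype, beside 28.3% of all genes in KO and 30.3% in WT, and the median log2 fold change was -0.04 in KO and 0.08 in WT. Fcrl1, an Fc receptor-like gene, was lower in KO (-2.03 ± 0.19) and WT (-1.72 ± 0.22). Gpr82, an orphan receptor gene next to Gpr34, was lower in KO (-1.52 ± 0.45, adjusted p 0.0107), and Adgrg5, a relative of Adgrg1, in WT (-1.03 ± 0.39, adjusted p 0.0444). Higher in both were Slc2a1, the glucose transporter GLUT1 (0.52 ± 0.16 in KO and 0.92 ± 0.18 in WT), and Tgm2, a transglutaminase (0.71 ± 0.22 and 0.80 ± 0.25). Slc2a1 thus moved opposite to the fructose transporter Slc2a5. None of the 15 was called between KO and WT at ns or under LPS, nor any of 17 in the sex experiment.

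Genes whose level ran most nearly with the mean of the members were listed by correlation. Over the 16 KO libraries of the LPS experiment these were Prkca, a protein kinase C gene (r = 0.99), Zfp827 (0.98), Blnk, a B-cell and macrophage adaptor (0.97), Nav2 (0.97) and Efcab6 (0.97). Over the 18 animals of the sex experiment they were Lgmn, a lysosomal protease (0.99), Abhd12, a lysophosphatidylserine lipase (0.98), Gm51544 (0.98), F11r, a junction adhesion molecule (0.97) and Chst7, a sulfotransferase (0.96). The former set shares the LPS contrast, the latter shares male WT 5 and female WT 2, and Gm51544 overlaps Adgrg1.

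Markers of other cells were measured beside these results. The 13 microglia markers, 9 of them the members, summed to 38500 to 50900 CPM in KO ns and 23800 to 29700 in KO LPS. The neutrophil list summed to 295 to 9400 CPM in KO ns and 1020 to 4170 in KO LPS, and 0 of its 9 genes were called. In WT the neutrophil sums were 330 to 17300 CPM at ns and 1730 to 13000 under LPS, with 1 of 9 called lower. WT ns 8, the lowest of its group for 9 of 9 members, had 16300. For 8 monocyte markers the sums were 111 to 1160 CPM in KO ns and 435 to 904 in KO LPS, with 1 called higher and 1 lower. For 7 border macrophage markers they were 240 to 717 and 156 to 461 CPM, with 3 called lower. Astrocyte markers summed to 2.48 to 8.84 CPM over the KO libraries (1 of 6 called higher) and neuron markers to 3.1 to 18.6 CPM (0 of 5 called). For endothelial and mural markers the medians in KO ns and KO LPS were 70.5 and 30.9 CPM. They were 99.2 and 77.6 for the oligodendrocyte lineage and 30.9 and 20.3 for lymphocytes. Of the 7, 4 and 5 genes tested in these lists, 1, 1 and 2 were called lower in KO. In KO 1 oligodendrocyte lineage gene was called higher. In WT, 1 monocyte marker was called higher and 1 lower, 2 border macrophage markers lower and 1 astrocyte marker higher. Endothelial and mural markers had 2 higher and 2 lower in WT, oligodendrocyte lineage markers 1 lower and lymphocyte markers 2 lower. Over all genes, 28.3% were called in KO (15.2% lower) and 30.3% in WT (15.5% lower). 0 markers of any list were at 0 in a whole group. The part of other cells in the members' changes was not tested.

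The libraries unlike all others did not shift the 9 members alike. 4 of these libraries stayed in a comparison, and each was set against the median of the remaining libraries of its group. Gpr34 was higher in all 4, by 0.74 to 2.87 on the log2 scale, and so were Fcrls, by 0.56 to 1.86, and Siglech, by 0.43 to 1.12. Adgrg1 was lower in all 4, with log2 ratios from -3.30 to -1.69. Sparc was lower as well, from -1.25 to -0.15. Slc2a5 lay within 0.17 of the other libraries in each of the 4. Cx3cr1 was lower in WT LPS 7 and KO ns 6 (-1.90 and -2.52) and near the others in KO ns 5 and KO LPS 5 (0.04 and -0.17). Tmem119 showed the reverse placement, lower in KO ns 5 and KO LPS 5 (-1.45 and -1.49) and near the others in WT LPS 7 and KO ns 6 (0.29 and -0.13). Gpr34, Fcrls, Siglech, Adgrg1 and Sparc thus each kept 1 direction across these ns and LPS libraries. The shifts of Adgrg1 in all 4, and of Tmem119 in KO ns 5 and KO LPS 5, were larger in size than the log2 fold changes of the same genes with LPS in KO (-1.35 and -0.61). The same held for Sparc in WT LPS 7, KO ns 6 and KO LPS 5 (-0.53 with LPS). It also held for Fcrls in KO LPS 5 (-1.69 with LPS) and for Cx3cr1 in WT LPS 7 and KO ns 6 (-0.21 with LPS).

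**Figure D4:**
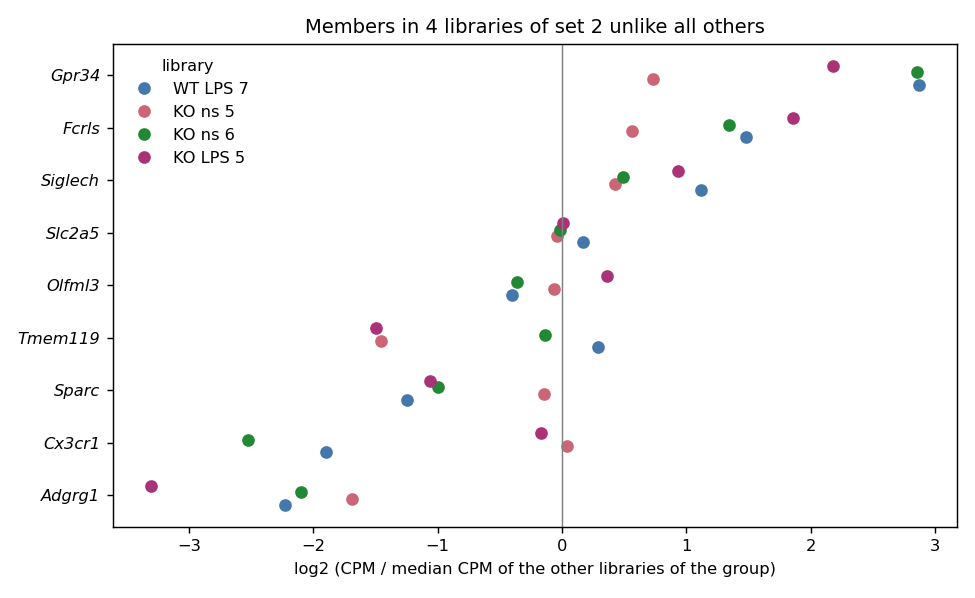
Log2 ratio of each member in the 4 libraries unlike all others that stayed in a comparison (WT LPS 7, KO ns 5, KO ns 6 and KO LPS 5) to the median of the other libraries of the same group. Points are libraries and the line marks no difference. Gpr34, Fcrls and Siglech lie to the right in all 4, Adgrg1 and Sparc to the left, and Slc2a5 within 0.17 of the line.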

How the data were processed

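Per the labels, polyadenylated RNA of CD11b-positive brain cells was sequenced on a NovaSeq. The authors deposited 1 table of raw counts per gene for each experiment, as whole numbers without normalization. The submitters' processing notes list FastQC, STAR 2.6.1, featureCounts, Subread, DESeq2 and the build GRCm39 without saying their roles. A strand setting is not given in the sources used here. In the sex experiment 78.1% to 87.5% of counts under 50 were even, against 40.8% to 46% in the LPS experiment, so no model joined the tables. The labels list 6 repeat libraries of the sex experiment that have no column, and these were not analysed here.

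The edgeR function filterByExpr (version 4.0.16, R 4.3.3) left 31709 genes of the sex and 15857 of the LPS experiment, which were scaled by TMM and tested with the quasi-likelihood F test, 1 model per experiment with a mean per group. The LPS model had the library set as a covariate and separate means for the WT libraries numbered 2. The scripts were tested on simulated data. DESeq2 1.42.0 and the other alternatives are given at the end. Same-numbered samples correlated with a mean r of 0.00677 (sex) and 0.0797 (LPS) in their deviations from the group means. In the LPS experiment the r of the 35 same-numbered pairs ran from -0.437 to 0.77, and 12 were over 0.1. For the 24 pairs of the sex experiment it ran from -0.478 to 0.354, with 7 over 0.1. On the mean r, numbers were not used as pairs, so likeness between some same-numbered libraries is not modelled in the main fit. Named genes of other lists were the 3 lowest and the 3 highest called, and the genes most like the members the 5 with the highest Pearson r. The members and lists were chosen with earlier results of these data known.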

Additional observations from a re-analysis of the deposited data

Results flagged for a closer look

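In 17 of the 68 groups examined (a member in a group of 4 to 10 samples), 1 sample lay far from the others of its group by Dixon's test, which chance does in about 1 of 20 groups. The samples are few, and several values come from the same library.

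In the sex experiment, male WT 5 was the lowest of its group for Tmem119 (1043 CPM), Cx3cr1 (3942 CPM), Sparc (1635 CPM) and Adgrg1 (415.5 CPM). Male KO 5 was the lowest of its group for Slc2a5 (380 CPM) and Adgrg1 (556.6 CPM).

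In the LPS experiment, Gpr34 and Fcrls were highest of their group in the library labelled WT LPS 6 (7301 and 3975 CPM), in KO ns 6 (11660 and 6095 CPM) and in KO LPS 5 (742.8 and 2385 CPM). KO LPS 5 was also the highest for Siglech (584.7 CPM). Tmem119 was lowest in KO ns 5 (1002 CPM). Cx3cr1 and Sparc were lowest in KO ns 6 (566.2 and 1601 CPM). Cx3cr1 in WT ns 8 was at 208.8 CPM, where the next lowest library labelled WT ns had 2489 CPM. WT ns 8 is not among the 6 libraries unlike all others, and without it the log2 fold change of Cx3cr1 with LPS in WT was -0.44 (adjusted p 0.432, edgeR's quasi-likelihood test).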

How the results depend on the processing

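Of 1466 recomputed member values, 1436 kept their side of the threshold, 28 called values were lost, 2 were gained and 0 called values reversed. Leaving out 1 animal of the sex experiment moved no log2 fold change by more than 0.171. With LPS in KO, 8 members were called, and 5 with all libraries as labelled (beside 3542 of 15857 genes) and 3 in set 2 by itself. With LPS in WT, 8 were called, and 0 as labelled and 2 in set 2. Tmem119 and Sparc were not called in KO without a filter (adjusted p 0.0909 and 0.106) or without the set covariate (0.0665 and 0.0547), nor Sparc in KO without library number 2 in any group (0.14), nor Tmem119 in WT without a filter (0.0507). A replicate block by library number was not used in the main model, because the mean correlations were low, although some same-numbered pairs were alike. With this block, 1 member was called between KO and WT under LPS, Slc2a5 (log2 fold change 1.61, adjusted p 0.0461, edgeR's quasi-likelihood test). The other value gained was that of Cx3cr1 with LPS in WT in set 1 by itself, where all the members were called. No further member value changed its side of the threshold.

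Counts over all genes moved more. For KO against WT averaged over the sexes (137 genes), DESeq2 called 359, leaving out 1 animal gave 54 to 279, and leaving out male WT 5 and female WT 2, chosen after seeing the data, gave 309. In females (52), DESeq2 called 213, no filter gave 96, only the groups compared 3, the block 85, leaving out 1 animal 5 to 132 and the pair of WT animals 192. In males (3) DESeq2 called 24 and the block 5. Between the sexes in WT (23), DESeq2 called 153, only the groups compared 11, the block 13 and leaving out 1 animal 14 to 41. At ns (14), DESeq2 called 46, set 2 gave 1, and leaving out the 6 libraries unlike the others 58. Under LPS (15) the values were 50, 0 and 45, set 1 gave 26 and the block 36. For LPS in KO (4481), set 1 gave 7058, set 2 gave 756 and leaving out the 6 libraries 8765. In WT (4811) set 2 gave 589, leaving out the 6 libraries 8692, and all libraries as labelled 0.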
